A study of Homo sapiens with 12 samples.

Results

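Goblet cells are the mucus-secreting cells of the intestinal epithelium. Followed here were 10 genes of mucus secretion, listed by name with earlier results of these data known: the mucins MUC1, MUC2, MUC5AC, MUC5B, and MUC13, the trefoil factors TFF1, TFF2, and TFF3, the transcription factor SPDEF, and the endoplasmic reticulum protein AGR2. Every array probe whose RefSeq accession led to one of these genes was taken, which gave 17 probes for 9 of the 10 genes, out of 17241 genes with a matched probe. No probe was matched to MUC5B. There were 3 probes for MUC2, 4 for MUC5AC, 3 for TFF3, 2 for TFF1, and 1 each for MUC1, MUC13, TFF2, SPDEF, and AGR2. The 4 MUC5AC probes carry 1 accession that the RefSeq gene table used here does not hold, and were named through the study's own list of β-catenin-regulated transcripts. That list was drawn from the β-catenin arrays described below, so the change of MUC5AC on them was part of how its probes came to be named.

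The data are 12 dual-color Agilent arrays, of which the Ls174T and the HEK293T line account for 6 each. Ls174T is a human colorectal carcinoma line in which a point mutation stabilizes β-catenin, so that Wnt signaling is always on, and HEK293T is an embryonic kidney line with an intact pathway. All cells received pooled siRNAs at 15 nM for 72 h. For Ls174T, 2 arrays set β-catenin-depleted RNA directly against si-control RNA with the dyes exchanged, and 4 arrays set 1 sample each (si-control or depletion of MLLT10/AF10, BRG1, or p300) against a universal human reference RNA. For HEK293T, each of 6 samples was set against that reference: si-control cells kept for 9 h in control medium, si-control cells given Wnt3A for 9 h, and Wnt3A-treated cells depleted of MLLT10/AF10, DOT1L, BRG1, or p300. MLLT10/AF10 and the histone methyltransferase DOT1L, the chromatin remodeler BRG1, and the acetyltransferase p300 are nuclear cofactors studied for their part in β-catenin-driven transcription. No array holds DOT1L-depleted Ls174T cells, and the study states that this depletion led to cell death in that line.

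Secreted mucins such as MUC2 are very large glycoproteins that are folded in the endoplasmic reticulum, densely decorated with O-linked sugars in the Golgi, and packed into granules, from which they swell into the mucus gel. Trefoil factors are small, disulfide-rich peptides that are secreted with mucins and are known for their role in epithelial repair. In the intestine, Wnt signaling maintains the dividing crypt cells, and goblet cells differentiate as progenitors leave the crypt base.

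There was 1 biological sample per condition, so no test between conditions was possible and no p-value is given. A value after ± is the error that the scanner program assigned to a ratio, combined over the arrays compared, and it does not hold the spread between cultures. A probe counted as well measured where at least 1 channel exceeded 2-fold its local background on every array compared, and "well above background" is the program's own flag for 1 channel. Counts of probes past a fold threshold are set beside the percentage of all well-measured probes past the same threshold. Signals are the program's processed intensities and cannot be compared between probes. They are not scaled between arrays unless this is said. For 1 probe they can therefore differ between arrays even where the RNA is the same. In bulk RNA, fewer cells of a type and less RNA per cell cannot be told apart.

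The 2 arrays of the β-catenin pair differed in quality. Array 1 had 23161 well-measured features and array 2 had 18175, against 27781 to 31088 on the other arrays. The depleted channel was well above background for 54.9% of features on array 1 and 42.6% on array 2. Median control signal over local background was 2.18 on array 1 and 1.40 on array 2. The 2 arrays correlated with a Pearson r of 0.872 over 17835 features. The siRNA targets were lower in their own depletions: CTNNB1, which encodes β-catenin, by -2.70 and -2.49 on the log2 scale at its 2 probes, MLLT10 by -1.42 ± 0.33 at the 1 probe measured, SMARCA4, which encodes BRG1, by -2.24 to -2.53, and EP300 by -1.31 ± 0.14 and -0.60 ± 0.48. In HEK293T cells MLLT10 was lower by -1.76, SMARCA4 by -3.95 to -4.00, EP300 by -2.35 and -2.98, and DOT1L by -1.41 and -1.97 at 2 of its 3 probes, with 0.17 at the other. All 10 genes of a list of intestinal epithelial markers were well above background on all 4 Ls174T reference arrays, but 6 of them were so on all 6 HEK293T arrays too, and only CDH17 was so on 0 of 6. All 5 genes measured from a kidney line list were well above background on all 6 HEK293T arrays, and of these LHX1 and VIM were so on 4, NEFM on 2, NEFL on 1, and CDH2 on 0 of 4 Ls174T arrays. The 5 slides set a limit: the Ls174T si-control and MLLT10/AF10 arrays were on 1 slide, those of BRG1 and p300 on a different one, and the HEK293T si-control Wnt3A array shared its slide with no other array of the series. Slide and depletion therefore cannot be told apart for BRG1 and p300 in Ls174T cells, and slide and condition cannot be told apart in any HEK293T comparison with that array.

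The genes lie in several places in the human genome. MUC2, MUC5AC, and MUC5B stand side by side on chromosome 11, between MUC6 and TOLLIP, and TFF3, TFF2, and TFF1 stand side by side on chromosome 21, between ABCG1 and TMPRSS3. MUC1 is on chromosome 1, MUC13 on chromosome 3, SPDEF on chromosome 6, and AGR2 on chromosome 7. RefSeq promoter sequences on GRCh38.p14 were at hand for 5 of the genes, namely MUC1, MUC2, MUC13, SPDEF, and AGR2. Since the genes moved together after β-catenin depletion, the 250 bases before the start are shown for 4 of them, 5′ to 3′ on the strand of the gene, with matches to the searched motifs in capitals:
AGR2 promoter, chr7:16805000-16805249, minus strand: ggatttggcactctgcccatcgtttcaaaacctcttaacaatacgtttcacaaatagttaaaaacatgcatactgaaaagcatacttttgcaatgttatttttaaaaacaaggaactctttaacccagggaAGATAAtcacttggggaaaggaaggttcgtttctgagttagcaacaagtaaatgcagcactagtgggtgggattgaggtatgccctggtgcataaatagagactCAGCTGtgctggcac
SPDEF promoter, chr6:34556330-34556579, minus strand: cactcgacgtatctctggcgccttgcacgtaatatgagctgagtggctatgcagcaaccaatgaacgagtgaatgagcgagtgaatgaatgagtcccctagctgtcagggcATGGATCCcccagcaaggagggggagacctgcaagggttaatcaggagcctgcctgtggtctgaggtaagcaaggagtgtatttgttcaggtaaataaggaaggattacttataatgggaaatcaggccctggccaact
MUC2 promoter, chr11:1074624-1074873, plus strand: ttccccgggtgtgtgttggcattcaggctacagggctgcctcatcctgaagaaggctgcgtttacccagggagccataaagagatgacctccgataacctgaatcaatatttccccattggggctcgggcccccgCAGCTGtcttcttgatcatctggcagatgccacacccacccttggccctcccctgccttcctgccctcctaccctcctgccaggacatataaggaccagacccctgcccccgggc
MUC13 promoter, chr3:124934752-124935001, minus strand: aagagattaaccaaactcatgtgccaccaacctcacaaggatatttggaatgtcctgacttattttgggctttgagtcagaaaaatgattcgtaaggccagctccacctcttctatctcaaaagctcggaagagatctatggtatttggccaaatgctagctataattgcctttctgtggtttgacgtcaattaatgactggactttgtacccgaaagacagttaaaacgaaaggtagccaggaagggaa
The letters of 7 motifs were searched on both strands, in these windows and the 50 bases after the start. The TCF/LEF core CTTTGAT, through which β-catenin's DNA-binding partners act, was in 0 of the 5 promoters and in 2.62% of all 35116 RefSeq promoters of this length. The palindromic E-box CAGCTG was in 3 of the 5, those of AGR2 at -15, MUC2 at -115, and MUC1 at -201 from the start, and in 17.9% of all promoters. SPDEF's own promoter held both searched forms of an SPDEF-type ETS site, ATGGAT at -139 and the overlapping palindrome GGATCC at -137, which occur in 6.96% and 6.83% of all promoters. The GATA core AGATAA was at -119 of AGR2 (10.3% of all) and the TATA box TATAAA at -24 of MUC1 (11.5% of all), while the FOX core TGTTTAC was in none of the 5 (3.42% of all). MUC13 held none of the 7. These are matches of letters in a window and not mapped sites.

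All 8 genes that could be measured on the β-catenin pair were more than 2-fold higher when β-catenin was depleted, against 4.6% of all 9440 genes measured there. MUC5AC is 1 of the 8, and its naming used these arrays. By probe, 11 of 13 well-measured probes were more than 2-fold higher and 0 were lower, where 4.48% of all 16513 probes were past that threshold. The median change of the 13 probes was 2.02 on the log2 scale, beside -0.02 for all probes, and that of the 8 genes was 1.97. The largest gene value was that of TFF2 and the smallest that of MUC2, and every one of the 13 values was above 0 on both arrays. Over the 11 probes that were well above background in all 4 channels, 9 were more than 2-fold higher, the median was 1.67, and the arrays differed by 0.0027 to 0.33 on the log2 scale, with a median of 0.15. These 2 arrays hold the same RNA, so that agreement is technical.

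**Figure D1:**
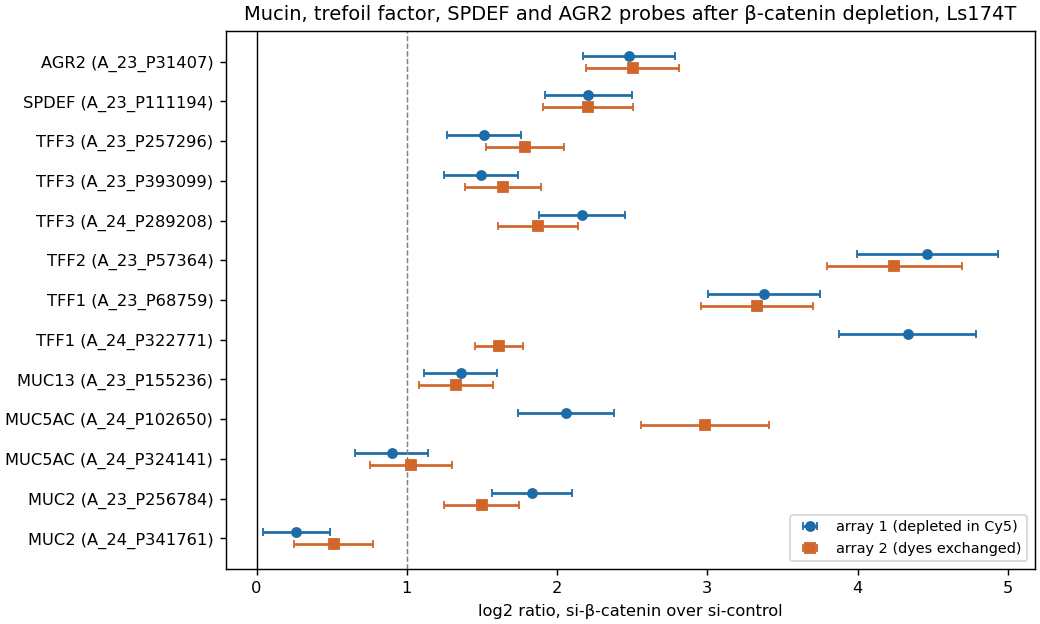
Log2 ratio of β-catenin-depleted over si-control RNA (x axis) for the 13 well-measured probes (y axis), with array 1 as circles, the dye-exchanged array 2 as squares, and the program error of each array as bars. The solid line is at 0 and the dashed line at 2-fold. All points lie right of 0, TFF2 lies farthest to the right on average (4.46 and 4.24), and the second TFF1 probe is the one whose arrays stand apart (4.33 and 1.61).

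AGR2 encodes a protein disulfide isomerase of the endoplasmic reticulum that is needed for mucin folding. Its processed signal was 97932 in depleted and 17552 in control RNA on the first array, and 92017 and 16240 on the second. Before processing, the median signal of the depleted channel was 717 times local background on the first array and 142 times on the second. The depleted channel was the brighter on both, with log2 ratios of 2.48 and 2.50 and a mean of 2.49 ± 0.22, a 5.62-fold difference. SPDEF, an ETS transcription factor that promotes goblet and Paneth cell maturation, had signals of 743 against 161 and 480 against 104. Its log2 ratio was 2.21 on each array, with a mean of 2.21 ± 0.21, a 4.62-fold difference, and its 2 arrays were the closest of the 13 probes.

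The trefoil factors had the widest range. TFF2, best known from the mucous neck cells of the stomach, had signals of 2815 against 128 and 2559 against 135. Depleted RNA was thus brighter by 4.46 and 4.24 on the log2 scale, with a mean of 4.35 ± 0.32, or 20.4-fold. TFF1, a peptide of gastric surface mucus, gave 50099 against 4826 and 40688 against 4045 at probe A_23_P68759, which is a mean log2 ratio of 3.35 ± 0.26, or 10.2-fold. At its other probe, A_24_P322771, array 1 gave 16226 against 806, a log2 ratio of 4.33, and array 2 gave 1005 against 328, a ratio of 1.61. On array 2 the median signal of that spot was only 2.16 times its local background and its control channel was not well above background. The mean of 2.97 ± 0.24 averages these unlike values. TFF3, the trefoil factor of intestinal goblet cells, was measured by 3 probes that lay between 1.57 and 2.02. Its probe A_23_P257296 gave 131022 against 45896 on array 1 and 234974 against 68149 on array 2, a mean of 1.65 ± 0.18, or 3.14-fold, and its probe A_24_P289208 gave 10072 against 2245 and 9074 against 2480, a mean of 2.02 ± 0.20, or 4.05-fold. The third probe, A_23_P393099, had a mean of 1.57 ± 0.18.

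The mucins were less uniform, and several of their probes were dim. MUC13, a transmembrane mucin of the apical epithelial surface, had signals of 621 against 242 and 568 against 226, a mean log2 ratio of 1.34 ± 0.17, or 2.53-fold. For MUC2, the main gel-forming mucin of the colon, probe A_23_P256784 gave 1149 against 323 and 621 against 220. That is a mean of 1.67 ± 0.18, or 3.17-fold, with the depleted channel brighter on both arrays. A second MUC2 probe, A_24_P341761, gave 186 against 155 and 229 against 160, a mean of only 0.39 ± 0.17, and the third, A_24_P84657, was above background in 0 of 4 channels. The 2 measured MUC2 probes therefore had 1 direction and different sizes, and the gene value of MUC2 as their median was just past 2-fold. MUC5AC, a gel-forming mucin of the gastric surface and airways, had a mean log2 ratio of 0.96 ± 0.18, or 1.95-fold, at probe A_24_P324141, with 246 against 132 and 156 against 76.6. Its dimmer probe A_24_P102650 gave 207 against 49.6 and 187 against 23.7, a mean of 2.52 ± 0.27, with 3 of 4 channels well above background. Its other 2 probes were not well measured. The 4 further probes that the study's list assigns to MUC5AC without a RefSeq accession had means of 1.59 to 3.58, which is a description, since that list was chosen for change on these arrays. The highest, at A_24_P548274, had a control channel that was not well above background on array 2. Probe A_24_P743708 gave 14032 against 2066 and 8202 against 1319, a mean of 2.70 ± 0.23. MUC1, a transmembrane mucin of many epithelia, was above background in 0 of 4 channels of the pair, with signals of 19.8 to 28.9.

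Other genes of mucus production were mostly higher as well, counted over lists written from general knowledge, where 4.6% of all genes exceeded 2-fold in the higher and 1.21% in the lower direction. Of 13 measured goblet secretory products, 8 were more than 2-fold higher and 0 lower, with a median log2 change of 1.64. They were led by BCAS1 (3.13 ± 0.26), by the secreted lectin REG4 (2.93 ± 0.24), and by ZG16 (2.88 ± 0.24), a lectin of the colonic mucus layer. Of 19 measured genes of mucin O-glycosylation and sulfation, 8 were higher and 0 lower, with a median of 0.73. The sialyltransferases ST6GALNAC1 (2.51 ± 0.22) and ST3GAL4 (1.48 ± 0.19) and the Lewis-type fucosyltransferase FUT3 (1.45 ± 0.17) led the genes of that list with every channel well above background. GCNT3, an enzyme that branches mucin sugar chains, and the O-glycan-initiating enzyme GALNT5 were among the 8 at 3.35 and 2.11 but had a channel that was not well above background, and are named here after their values were seen. Of 5 measured other mucins, 1 was higher, the transmembrane mucin MUC17 at 3.80 ± 0.29. This is from the only MUC17 probe measured on the pair, and its other probes were not well measured. With reference RNA that probe was well above background on 1 of 4 Ls174T arrays, with a si-control signal of 3.86. The probes of MUC4 had opposite signs near 0 (-0.04 and 0.01).

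**Figure D2:**
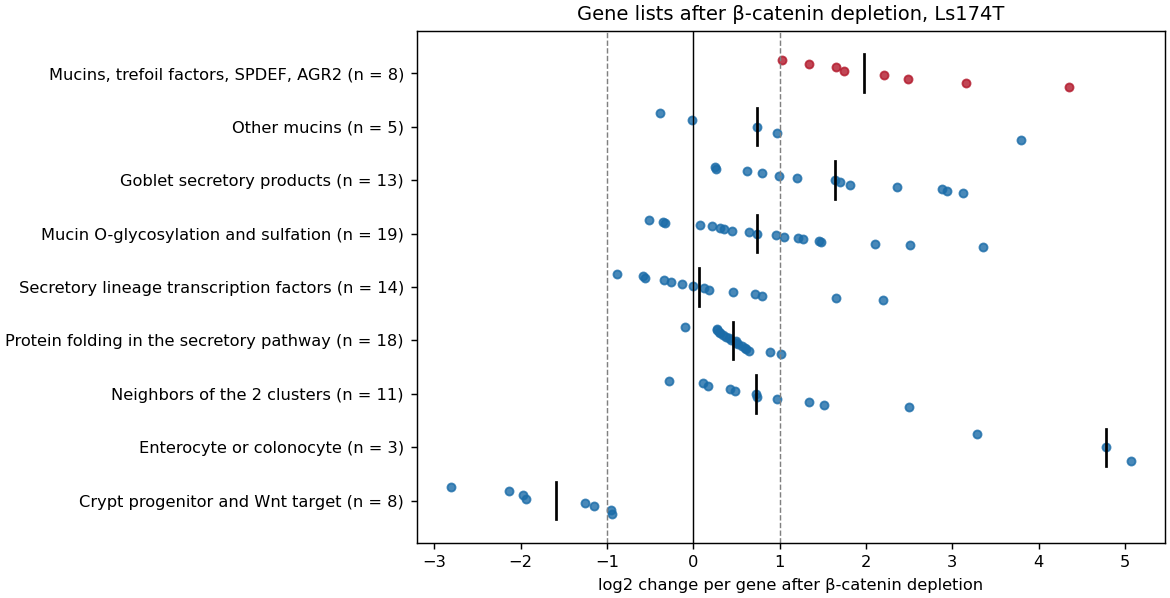
Log2 change per gene after β-catenin depletion (x axis) for the mucin, trefoil, SPDEF, and AGR2 genes (top, 8 genes) and for 8 other lists (y axis, with the number of measured genes). Each point is 1 gene, the black tick is the list's median, the solid line is at 0, and the dashed lines are at 2-fold. All 8 top points lie right of the upper dashed line, and the crypt progenitor list is the only one plotted whose median is to the left of the lower dashed line (-1.59).

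The lists that stand further from mucus itself moved less than the goblet secretory products. The neighbors of the mucin and trefoil clusters had about the same median as the glycosylation genes. Of 14 measured transcription factors of the secretory lineage, 2 were higher and 0 lower, with a median of 0.06, namely the epithelial ETS factor ELF3 (2.20 ± 0.20) and KLF4 (1.66 ± 0.18), a zinc-finger factor needed for goblet cell differentiation. Among 18 measured genes of protein folding in the secretory pathway, 1 was higher, MANF at 1.02 ± 0.16, and the median was 0.46. So AGR2 at 2.49 stood above every other disulfide isomerase and chaperone measured in that list. Of 11 measured neighbors of the mucin and trefoil clusters, 3 were higher and 0 lower, with a median of 0.73. These were RSPH1, a cilium gene (2.50 ± 0.22), the cyclic GMP phosphodiesterase gene PDE9A (1.52 ± 0.18), and SLC37A1 (1.34 ± 0.17), which lie near the trefoil factors, while the 3 probes of POLR2L near the mucins ranged from -0.06 to 0.27.

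Markers of other intestinal cell types did not all move with the mucus genes. All 3 measured genes of a list of 10 enterocyte markers were more than 2-fold higher, namely the fatty acid binding protein gene FABP1 (5.07 ± 0.37), KRT20 (4.78 ± 0.35), and CA1 (3.28 ± 0.19). The summed processed signal of that list was 47563 to 67090 in depleted and 1895 to 2362 in control RNA, and CA2, GUCA2A, SI, and SLC26A3 were never above background on the pair. KRT20, LGALS4 (3.29 ± 0.26), and CDH17 (2.08 ± 0.20) led 5 of 9 measured epithelial markers that were higher. Of 5 Paneth markers, 2 were measured, 1 higher (PLA2G2A, 1.86 ± 0.19) and 1 lower (DEFA6 at -2.93 ± 0.26, with a channel not well above background), with sums of 1856 to 2244 against 1009 to 1408, and LYZ and DEFA5 were never above background. None of the 2 measured enteroendocrine genes passed 2-fold (sums of 2444 to 4056 against 2312 to 4247, with CHGB, GCG, NEUROD1, SCG2, and SST never above background). A gastric surface list, written because MUC5AC and TFF1 are stomach genes, had 0 of 6 genes above background on the pair. Of its genes, PGC was well above background on 4 of 4 Ls174T and 6 of 6 HEK293T arrays with reference RNA, where its brighter probe had sample signals of 724 to 1381 and reference signals of 5108 to 8756. Of 8 measured crypt progenitor and Wnt target genes, 6 were more than 2-fold lower and 0 higher, led by ASCL2 (-2.81 ± 0.23), EPHB3 (-2.14 ± 0.20), and AXIN2 (-1.97 ± 0.19). Their summed signal was 22569 to 31633 in depleted and 92827 to 132788 in control RNA. What these shifts contribute to the mucin and trefoil values was not tested.

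On the reference arrays of Ls174T cells 13 of the 17 probes were well measured, the others being 1 probe of MUC2 and 3 of MUC5AC. After MLLT10/AF10 depletion, 0 of the 13 differed from si-control by more than 2-fold, where 0.756% of all 25407 probes were higher by that much. The median was 0.15, beside -0.01 for all probes, and 6 of 9 genes had a value above 0. SPDEF had signals of 315 on the si-control array and 429 on the MLLT10/AF10 array, a change in its ratio to reference of 0.42 ± 0.33. TFF2 had 295 and 469 (0.33 ± 0.41), and TFF1 had 7113 and 9098 at A_23_P68759 (0.43 ± 0.51). At A_24_P322771 TFF1 had 1337 and 2255, a change of 0.77 ± 0.62, and this was the 1 probe of 13 past 1.5-fold, where 2.13% of all probes were higher by that much. AGR2 (0.22 ± 0.51), MUC13 (0.22 ± 0.85), TFF3 (-0.08 to 0.15), MUC2 (-0.21 and -0.14), MUC5AC (-0.32 ± 0.33), and MUC1 (-0.06 ± 0.62) stayed within the program error. Only SPDEF and the 1 TFF1 probe exceeded it.

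**Figure D3:**
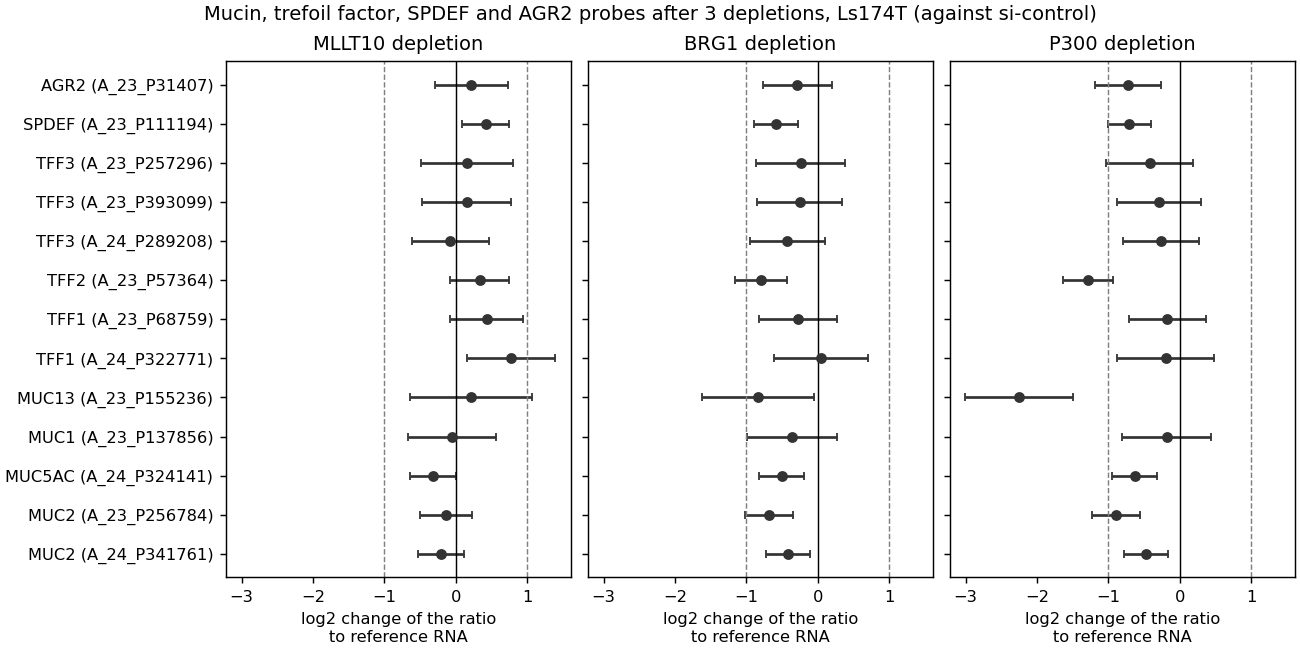
Change in the log2 ratio to reference RNA against the si-control array (x axis) for the 13 well-measured probes (y axis) after MLLT10/AF10, BRG1, and p300 depletion in Ls174T cells, with the combined program error as bars and dashed lines at 2-fold. MLLT10/AF10 values lie on both sides of 0 and none is past 2-fold, all but 1 of the BRG1 values and all p300 values lie left of 0, and MUC13 (-2.25) and TFF2 (-1.29) are past the lower line after p300 depletion.

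After BRG1 depletion, 0 of 13 probes were more than 2-fold lower, against 1.46% of all 25776 probes, and 4 were more than 1.5-fold lower, against 4.87%. The 4 were MUC13 (-0.84 ± 0.78), TFF2 (-0.80 ± 0.37), MUC2 at A_23_P256784 (-0.68 ± 0.34), and SPDEF (-0.59 ± 0.31), and the median of the 13 was -0.42. After p300 depletion, 2 of 13 were more than 2-fold lower, against 1.67% of all 26130 probes, and 6 more than 1.5-fold lower, against 5.6%. MUC13 had signals of 389 on the si-control array, 412 after MLLT10/AF10, 367 after BRG1, and 93.0 after p300 depletion. The p300 array was the only low one, and the sample channel alone, scaled to the array's 75th percentile, changed by -2.02 on the log2 scale. The change in the ratio was -2.25 ± 0.75, but the reference signals of MUC13 were only 6.68 to 12.4 and not well above background on the MLLT10/AF10, BRG1, and p300 arrays, so no fold is taken from its ratios. TFF2 was lower by -1.29 ± 0.36 in the ratio, and MUC2 (-0.89 ± 0.34), AGR2 (-0.73 ± 0.46), SPDEF (-0.70 ± 0.31), and MUC5AC (-0.63 ± 0.31) were past 1.5-fold. AGR2 had sample signals of 43124, 49139, 32940, and 24444 in the same order of arrays, lowest after p300 depletion. TFF3 at A_23_P257296 had 88416, 113218, 93007, and 60214 (-0.24 ± 0.62 for BRG1 and -0.42 ± 0.61 for p300), and TFF1 at A_23_P68759 had 7113, 9098, 6472, and 6593 (-0.28 ± 0.55 and -0.17 ± 0.54), all within the error.

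For several dim probes the reference channel, which holds the same RNA on every array, differed between arrays as much as the ratio did. For MUC2 at A_23_P256784 the sample signals were 190, 182, 333, and 305 on the si-control, MLLT10/AF10, BRG1, and p300 arrays, and the reference signals were 67.0, 70.5, 188, and 199. After each array was scaled to its 75th percentile, the sample channel was higher than in si-control by 0.86 after BRG1 and 0.73 after p300 depletion, and the reference channel by 1.51 and 1.61. So the lower ratio of MUC2 came with a higher and not a lower sample signal. MUC5AC at A_24_P324141 was alike, with the sample channel higher by 1.13 and 0.93 and the reference channel by 1.61 and 1.55. TFF2 had sample signals of 295, 469, 280, and 250, differing from si-control by -0.02 and -0.19 after BRG1 and p300 depletion, while its reference channel was higher by 0.75 and 1.08. SPDEF had 315, 429, 307, and 291, differing by 0.02 and -0.06, with a reference higher by 0.58 and 0.63. By contrast, AGR2 (-0.33 and -0.77 in the sample channel, -0.07 and -0.06 in the reference) and MUC13 after p300 depletion (-2.02 in the sample channel, 0.22 in the reference) were lower in the sample channel itself. After BRG1 depletion MUC13 differed by -0.03 in the sample channel and 0.78 in the reference. Over the 13 probes, the median sample channel change was 0.33 for MLLT10/AF10, 0.02 for BRG1, and -0.19 for p300, and the ratio and the sample channel had opposite signs for 1, 6, and 3 probes. MUC5AC probe A_24_P743708, one of those without a RefSeq accession, had ratio changes of 0.16 ± 0.36, -0.41 ± 0.34, and -0.57 ± 0.34 in the 3 depletions. The BRG1 and p300 arrays share a slide that the si-control array is not on.

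**Figure D4:**
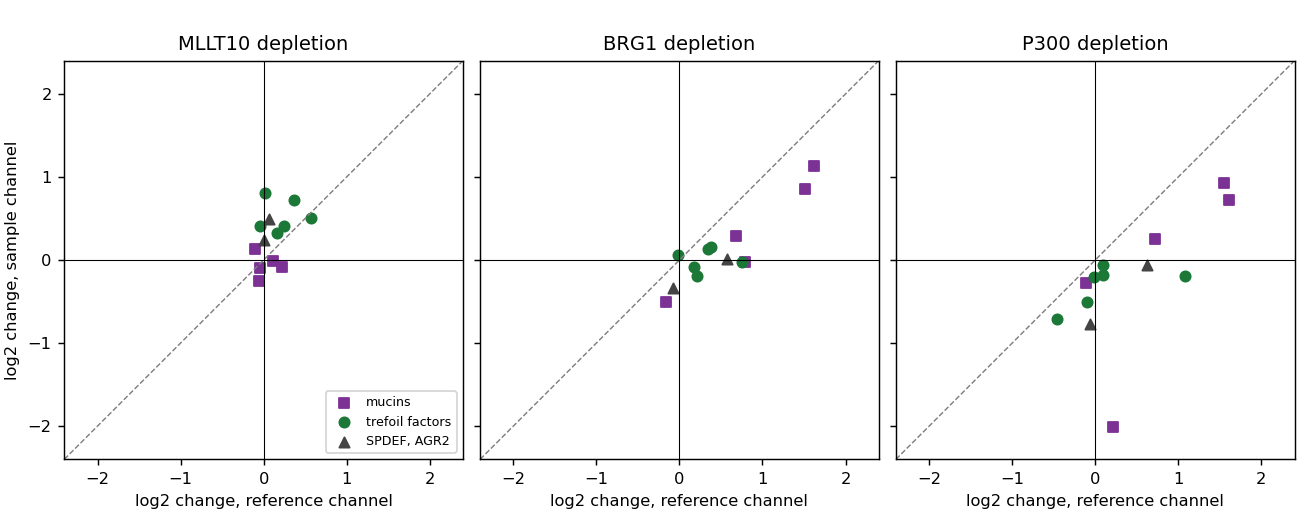
Log2 change against the si-control array in the sample channel (y axis) and in the reference channel (x axis), each scaled to the array's 75th percentile, for the 13 well-measured probes after 3 depletions in Ls174T cells. Squares are mucins, circles trefoil factors, and triangles SPDEF and AGR2, and the dashed line marks equal change in both channels. After BRG1 and p300 depletion a group of probes lies right of 0, up to 1.61 in the reference channel, and MUC13 after p300 depletion (-2.02 in the sample channel) lies far below the rest.

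Within the slide that holds both the BRG1 and the p300 array, the 13 probes had a median difference of 0.13 on the log2 scale, beside -0.01 for all probes. MUC13 was the only one past 2-fold, higher in BRG1-depleted than in p300-depleted cells by 1.41 ± 0.69 in the ratio, whose reference channel was not well above background on either array, and by 1.99 in the sample channel alone. In the ratio, 1.29% of all 27957 probes were more than 2-fold higher. TFF2 (0.49 ± 0.32) and AGR2 (0.44 ± 0.45) came next, and SPDEF (0.12 ± 0.29), MUC2 (0.21 ± 0.31 and 0.06 ± 0.30), and MUC5AC (0.13 ± 0.29) differed by less than their program error. MUC13 was thus lower on the p300 array than on the BRG1 array of its slide. That slide holds no si-control array, so neither depletion can be set against si-control within it.

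Of the mucus gene lists, the goblet secretory products had the most genes past 2-fold after p300 depletion. Of 16 measured genes, 8 were more than 2-fold lower and 0 higher, with a median of -0.82, where 1.65% of all 13415 genes were lower by that much. They included ZG16 (-2.30) and BCAS1 (-1.14), and in the sample channel alone 7 of 16 were more than 2-fold lower, with a median of -0.37. No share of all genes is given for the sample channel. Of 22 genes of mucin O-glycosylation and sulfation, 3 were lower, ST6GALNAC1 (-1.84), GALNT5 (-1.14), and FUT2 (-1.07), with a median of -0.17. After BRG1 depletion, 2 of 16 secretory products (RETNLB at -2.38 and ERN2 at -1.07, named after their values were seen) and 1 of 23 glycosylation genes (ST6GALNAC1, -1.19) were more than 2-fold lower, against 1.25% of all 13287 genes. In the sample channel alone 0 of the 16 secretory products were more than 2-fold lower after BRG1 depletion, with a median of -0.03. Of 3 measured Paneth markers, 2 were more than 2-fold lower after each of BRG1 and p300 depletion, but not the same 2. DEFA6 was in both counts, beside LYZ (-1.09 ± 0.79) after BRG1 and PLA2G2A (-3.03 ± 0.43) after p300 depletion. LYZ was well above background on 1 of the 4 arrays, with a si-control signal of 35.3. These genes are named after their values were seen. Of 5 measured enterocyte markers 1 was higher and 2 lower after BRG1, and of 4 measured 1 was higher and 1 lower after p300 depletion, with FABP1 at -1.03 and -1.88 and CA2 at 3.07 and 2.99, both named after their values were seen. CA2 was well above background on 2 of the 4 arrays. Its si-control signal was 6.08, under the lowest signal well above background on that array (23.2), so the size of its change is uncertain. The summed sample signals on the si-control, MLLT10/AF10, BRG1, and p300 arrays were 4135, 5590, 2656, and 635 for Paneth and 2080, 3254, 1427, and 950 for enterocyte markers, of which FABP1 made up 1545 in si-control cells. Their part in the mucin and trefoil values was not tested.

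In HEK293T cells, AGR2, TFF3, and MUC13 stood far below their Ls174T levels, while the other probes differed less between the lines. Well above background in the sample channel were 11 to 12 of the 17 probes and 7 to 8 of the 9 genes on the HEK293T arrays, compared with 13 to 15 probes and 9 genes on the Ls174T reference arrays. The flag held for 69.9% to 77.2% of all features on the HEK293T arrays and for 63.8% to 76.3% on the Ls174T reference arrays. MUC13 was well above background on 0 of 6 HEK293T arrays, with signals of 4.92 to 7.70, against 93.0 to 412 in Ls174T cells. Set against the lowest signal that was well above background on the control medium array, after normalization of the sample channels between arrays, the sample signal of MUC13 was 29.3-fold higher in si-control Ls174T cells. That level is not a strict limit. Before normalization it was 24.6, and MUC5AC probe A_24_P102650 was not well above background there at 25.5. AGR2 had signals of 31.7 to 104, with a median of 63.7 and a reference of 4678 to 6266, against 24444 to 49139 in Ls174T cells, and its ratio to reference was higher in si-control Ls174T than in HEK293T cells in control medium by 9.25 ± 0.72 on the log2 scale, or 609-fold. For TFF3 this difference was 7.85 ± 0.60 and 8.64 ± 0.65 at the 2 probes with signal in both lines. The third, A_24_P289208, was well above background on 0 of 6 HEK293T arrays. Set against the same level as for MUC13, its sample signal was 249-fold higher in si-control Ls174T cells. Its reference channel, scaled to the array's 75th percentile, was also higher there, by 2.63 on the log2 scale. SPDEF (27.7 to 149 in HEK293T, 291 to 429 in Ls174T) differed by 2.68 ± 0.35, and was not well above background on the BRG1-depleted HEK293T array.

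**Figure D5:**
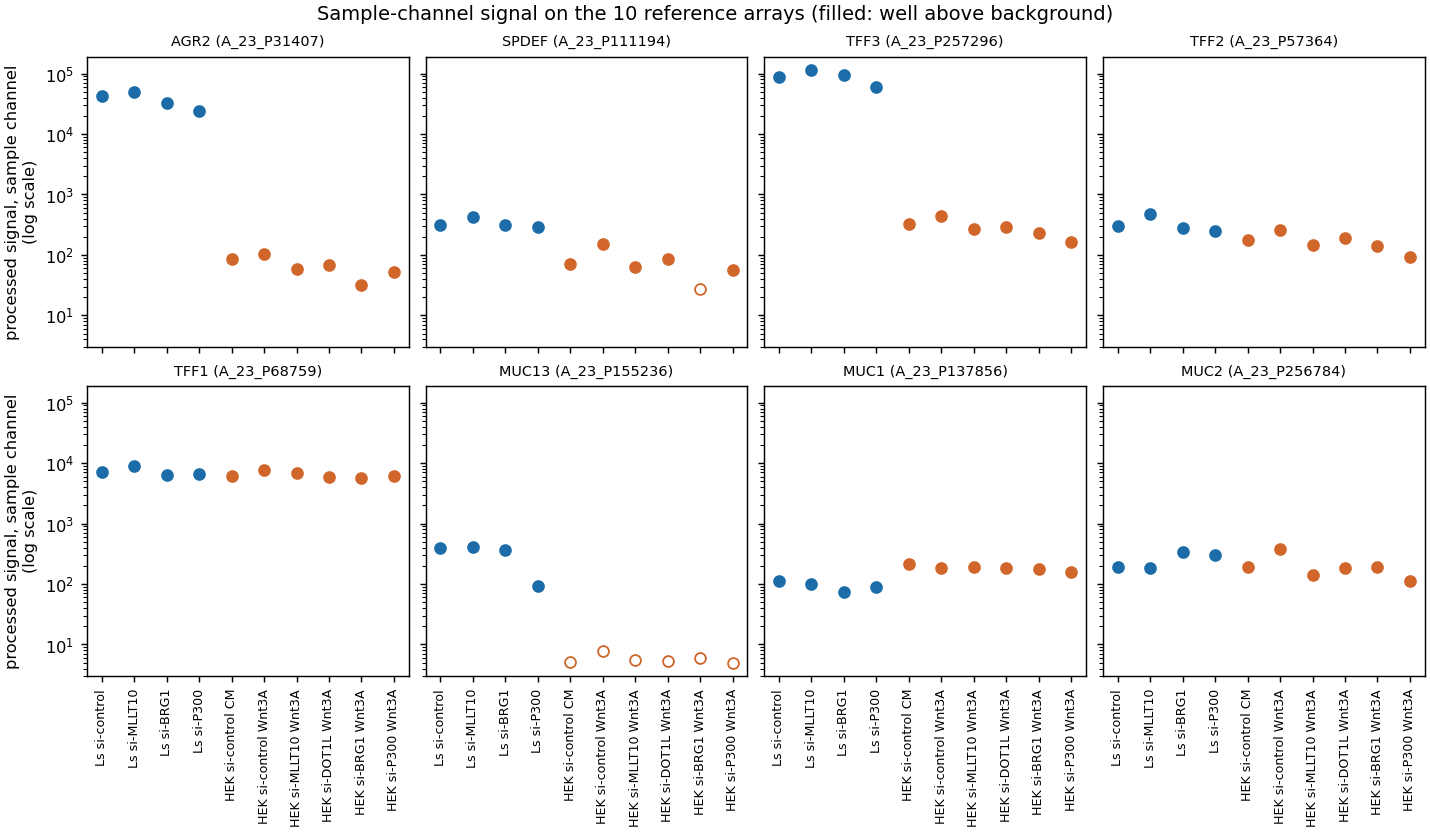
Processed signal of the sample channel (y axis, log scale) on the 10 reference arrays (x axis, blue Ls174T, orange HEK293T) for 1 probe of each of 8 genes, with filled circles well above background and open circles not. AGR2, TFF3, and MUC13 are separated between the lines by a wide gap (AGR2 24444 and more against 104 and less), while the MUC2 and TFF1 probes plotted overlap between the lines (the TFF1 probe not plotted does not) and MUC1 is brighter in HEK293T cells.

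The remaining genes differed less, and not in 1 direction. TFF1 at A_23_P68759 had 5727 to 7612 in HEK293T and 6472 to 9098 in Ls174T cells, ranges that overlap, and a difference of 0.59 ± 0.57 between the si-control cells. Its probe A_24_P322771 had 658 to 926 in HEK293T and 1125 to 2255 in Ls174T cells, ranges that do not overlap, and a difference of 1.13 ± 0.74. On the HEK293T arrays the reference channel of A_23_P68759 was at 90775 to 108135. MUC1 had 159 to 215 in HEK293T and 75.1 to 110 in Ls174T cells, with a reference of 2383 to 2874 and 1611 to 1839, and differed by -0.48 ± 0.58. In Ls174T cells MUC1 was thus well above background on the 4 arrays that carried reference RNA and in 0 of 4 channels of the β-catenin pair, which carried none. TFF2 had 92.9 to 263 in HEK293T and 250 to 469 in Ls174T cells, with HEK293T ratios to reference between -0.22 and 0.20 and a difference of 1.93 ± 0.35. MUC2 at A_23_P256784 had 114 to 376, overlapping the 182 to 333 of Ls174T cells, while its ratio to reference was higher in si-control Ls174T cells by 0.98 ± 0.34. MUC5AC at A_24_P324141 had 145 to 336, overlapping the 131 to 305 of Ls174T cells, while A_24_P743708 had 31.6 to 72.4 against 297 to 440.

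After 9 h of Wnt3A in HEK293T cells, 5 of 12 measured probes were more than 1.5-fold and 0 more than 2-fold higher, where 3.77% of all 27053 probes were more than 1.5-fold higher. They were AGR2 (0.66 ± 0.84), SPDEF (0.65 ± 0.35), TFF3 at A_23_P257296 (0.67 ± 0.52) and A_23_P393099 (0.71 ± 0.64), and the third TFF3 probe, which was not well above background in either sample and for which no value is given. Of the values given, AGR2 was within its program error. AGR2 had signals of 85.9 in control medium and 104 with Wnt3A, then 59.2, 68.3, 31.7, and 52.8 after MLLT10/AF10, DOT1L, BRG1, and p300 depletion with Wnt3A. The si-control Wnt3A array was the highest, and it is the one alone on its slide. Relative to it, 3 of 12 probes were more than 1.5-fold lower after MLLT10/AF10 depletion (3.81% of all probes), 4 of 12 after DOT1L (3.53%), 4 of 11 after BRG1 (11.7%), and 4 of 12 after p300 depletion (7.9%), and 0 were higher by that much. AGR2 was among them each time, at -1.07 ± 0.87, -0.97 ± 0.86, -2.14 ± 0.95, and -1.15 ± 0.87. TFF3 at A_23_P257296 was also among them, at -0.89 ± 0.54, -0.86 ± 0.53, -1.28 ± 0.56, and -1.53 ± 0.58. SPDEF was among them after MLLT10/AF10 (-0.64 ± 0.36) and BRG1 depletion (-2.06 ± 0.44, with a sample channel not well above background on the depleted array). The DOT1L and p300 counts each include the third TFF3 probe, which was not well above background in the sample channels compared. In the sample channel alone, the median change of the measured probes was -0.58 for MLLT10/AF10, -0.63 for DOT1L, -1.14 for BRG1, and -1.11 for p300 depletion, against -0.01, -0.13, -0.39, and -0.27 for the ratios. These comparisons share the Wnt3A array.

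Outside the lists, 5 genes had Ls174T changes closest to the median profile of the mucin, trefoil, SPDEF, and AGR2 genes, which was 1.97 for β-catenin, 0.22 for MLLT10/AF10, -0.51 for BRG1, and -0.69 for p300 depletion. By Euclidean distance over these 4 values, among 12077 probes, they were RAB37 (0.17), a small GTPase of secretory granules, MXD1 (0.30), a MAX-binding repressor, the gastrointestinal calpain gene CAPN9 (0.35), MMEL1 (0.35), and DQX1 (0.38). RAB37 had changes of 2.13, 0.23, -0.47, and -0.75. The last 3 of the 4 values share the si-control array.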

How the data were processed

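RNA from Ls174T and HEK293T cells was hybridized to 12 dual-color Agilent 4x44K arrays on 5 slides. The authors scanned them and deposited spot intensities and log10 ratios, which Agilent Feature Extraction (version 8.5.1.1 per the labels, 10.5.1.1 per the file headers) had corrected for local background and normalized between dyes, together with the program's error of each log10 ratio. The deposited value table holds the same log10 ratios. Ratios were turned to sample over reference, or depleted over control, and multiplied into log2. Of 43376 features that are not controls, outlier spots were left out (84 to 179 per array) and 0 were saturated. A probe was kept where either channel exceeded 2-fold local background on every array compared, and spots of a probe were averaged. Gene values are medians over probes. Symbols came from RefSeq accessions for 27616 of 29084 features that carry one. MUC5AC probes were named through the study's own list of transcripts.

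With 1 biological sample per condition no test was run, and errors are those of the program, combined in quadrature. The number of arrays limits the precision. The dye-exchanged pair is 1 sample. Changes in the depletions are differences of log2 ratios to the si-control array. Thresholds were 2-fold for Ls174T and, after the study's methods, 1.5-fold for HEK293T cells. Single channels were scaled to the 75th percentile of the array. Folds set against the lowest signal well above background used sample channels after loess within and Aquantile between arrays (limma 3.58.1, R 4.3.3). Everything else was computed in Python 3.11.15 with pandas 2.3.3 and numpy 2.4.6, and the scripts were tested on simulated data. Named genes were the 10 listed genes, the siRNA targets, the top 3 and bottom 3 of each list past 2-fold with every channel of the β-catenin pair well above background, genes whose probes differ in sign, and the 5 genes with the nearest profile. The genes and lists were chosen with earlier results of these data known. Alternatives were normexp (offset 50, on median signals, since the mean signal was not used here) with loess, other filters, spot summaries, centering, thresholds, the deposited table, single arrays of the pair, and the sample channel alone. The sample channel for the lists, the added MUC5AC probes, and the filter on all 4 channels were chosen after seeing the data. Promoters came from RefSeq on GRCh38.p14, and promoter sequences of the other 5 genes were not used here.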

Additional observations from a re-analysis of the deposited data

Results flagged for a closer look

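SPDEF was the 1 probe whose change after depletion of the same factor had opposite signs between the cell lines with each value beyond its program error. After MLLT10/AF10 depletion it was higher by 0.42 in Ls174T cells and lower by -0.64 in HEK293T cells, a difference of 1.05 on the log2 scale. With 1 sample per condition this difference was not tested. In the sample channel alone the values were 0.50 and -1.31, and the HEK293T comparison is between 2 slides while the Ls174T comparison is within 1. In HEK293T cells the log2 ratio of SPDEF to reference was -1.08 on the Wnt3A array and -1.71 after MLLT10/AF10 depletion. On the slide of the latter it was -1.72 in si-control cells in control medium, nearly the same value. The signal after MLLT10/AF10 depletion was dim there, at 61.9 and 1.88 times local background.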

How the results depend on the processing

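Of 216 counts and medians recomputed under alternatives, 174 stayed within the program error or 1.5 times the count, 42 moved, and 0 values past a threshold changed sign. After β-catenin depletion all 138 values of the measured probes over 11 alternatives were above 0. Only normexp, centering, and the single arrays of the pair could change such a value. Each probe had 1 spot and 0 outliers, the deposited table holds the same ratios, and the filters only drop or add probes. Most of the 138 therefore repeat the main values, and part of the 174 does so as well. The median of 2.02 was 1.57 under normexp, 1.65 with no filter, and 1.67 with only probes well above background in all 4 channels, and single arrays of the pair gave 1.79 to 2.06 and 11 to 12 probes past 2-fold. At 1.5-fold, counts in Ls174T cells became 1 higher for MLLT10/AF10, 4 lower for BRG1, and 6 lower for p300. The p300 count of 2 was 1 under normexp, with both channels over 2-fold background, and in the sample channel, and MUC13 no longer counted between BRG1 and p300 (0) under the stricter filter. The BRG1 median of -0.42 is against si-control. Within 1 slide BRG1 could only be set against p300, a different comparison, with a median of 0.13. In HEK293T cells, the Wnt3A count of 5 was 3 under normexp and under the stricter filter, and 0 at 2-fold. The depletion counts were 1 (MLLT10/AF10), 2 (DOT1L), 2 (BRG1), and 2 (p300) under the stricter filter, 1 for MLLT10/AF10 and 1 for DOT1L at 2-fold, and 6, 7, 9, and 9 in the sample channel, with medians of -0.58 (MLLT10/AF10), -0.63 (DOT1L), -1.14 (BRG1), and -1.11 (p300). No share of all probes is given for these alternative counts, so they are not read as particular to these genes. Genes above background on all 6 HEK293T arrays were 4 in place of 7 by median signal over local background. For the lists after β-catenin depletion, other mucins went from 1 to 2 with the brightest probe and to 3 at 1.5-fold, where transcription factors had 4, folding genes 5, and cluster neighbors 6. Of all genes, 10.8% were more than 1.5-fold higher after β-catenin depletion. After p300 depletion, other mucins and cluster neighbors had 0 in place of 1 with the brightest probe and in the sample channel, and 2 at 1.5-fold, and transcription factors had 4 at 1.5-fold and 0 in the sample channel. Of all genes, 5.12% were more than 1.5-fold lower after p300 depletion. The causes were not tested. No paired analysis was possible because each condition has 1 biological sample. Low signal over background limits the values of MUC1, MUC2, MUC5AC, and the HEK293T arrays.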
